A study of Caenorhabditis elegans with 43 samples.

Results

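Ribosome footprints of lin-41(xe11) animals were set against those of wild-type N2 at 28, 30 and 32 h of development, in mid L4. These are the hours at which lin-41 was lowest in N2, and they hold 6 of the 43 libraries of the study, 3 of each strain, matched by hour. The whole series sampled whole Caenorhabditis elegans animals every 2 h between 18 and 38 h of development and sequenced the mRNA fragments that ribosomes protect. All animals were grown at 25 °C on Escherichia coli NA22 after arrest at L1 and were pooled as populations, so that each library stands for 1 population of 1 strain at 1 hour. N2 carries no mutation. In xe11, a germ-line allele that every cell carries, point mutations alter the sites in the 3′ untranslated region of lin-41 to which let-7 pairs. Another strain, lin-41(xe11);let-7(n2853), has xe11 together with a point mutation in the seed of let-7, and its 3 libraries at the same hours shared the fit as the double mutant. There was 1 library per strain and hour, so the 3 hours stand in for replicates. The fit has a term for each hour, which removes what the strains share at that hour. The p-values therefore measure how strain differences vary between hours, not the spread between independent cultures. That variation is pooled over the 3 strains and includes the hours from 18 to 24 h.

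The heterochronic pathway sets the order of larval fates in the worm. The microRNA let-7 accumulates late in larval life and represses lin-41, which encodes an RNA-binding protein of the TRIM-NHL family. LIN41 in turn represses a small set of mRNAs, among them lin-29 and mab-10, whose products drive the epidermis from larval to adult programmes. The larval cuticle is rebuilt at each molt by collagens that are made in waves, and the adult cuticle has collagens of its own.

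Depth ran from 7638124 to 8990374 footprint counts per library in N2 at these hours and from 7040947 to 8157019 in lin-41(xe11). By correlation to the N2 course, the lin-41(xe11) libraries of 28, 30 and 32 h stood at 28.5, 30.2 and 32.2 h of N2 development. The 28 h library was thus the farthest from its hour, at 0.5 h. The defining markers of epidermis, intestine, body wall muscle, pharynx, neurons and germ line were present in all 6 libraries, and none of them was called. At an unadjusted p under 0.05, 2 of 4 pharynx markers and 1 of 7 neuron markers were lower in the mutant, beside 2.23% of all genes. Markers of sperm were summed over the 8 listed genes. They went from 7.45 to 87.7 CPM (counts scaled to library size) between 28 and 32 h in N2 and from 6.67 to 95.4 CPM in lin-41(xe11). In whole animals, fewer cells that make an mRNA and fewer footprints per cell cannot be told apart. All libraries are of footprints, so a difference in mRNA level and a difference in translation cannot be told apart either.

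The median difference of the 3 epidermis markers in log2(CPM + 1) was -0.43 at 28 h, 0.05 at 30 h and 0.30 at 32 h, and their summed level was 2492, 2152 and 1829 CPM in N2 and 2380, 2185 and 1680 CPM in the mutant.

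The mutated gene is described first. In N2, lin-41 (chromosome I, 9334800 to 9342496, minus strand, WBcel235 annotation) stood at 7.31 CPM at 28 h, 6.24 CPM at 30 h and 6.13 CPM at 32 h. In lin-41(xe11) it stood at 37.7, 39.2 and 33.2 CPM at the same hours. Every mutant library was thus above every N2 library, by 5.16-fold at 28 h, 6.29-fold at 30 h and 5.41-fold at 32 h. The means were 6.56 ± 0.654 CPM in N2 and 36.7 ± 3.16 CPM in lin-41(xe11) (mean ± SD, n = 3), a log2 difference of 2.49 ± 0.11 (standard error) in the fit. The N2 level of lin-41 chose these hours, so the difference is given as a description with no test.

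Before the window the strains stood close together. The mean of 18 to 24 h was 59.9 ± 7.25 CPM in N2 and 65.0 ± 3.33 CPM in lin-41(xe11) (SD, n = 4). The mutant went from 65.4 CPM at 24 h to 33.2 CPM at 32 h, whereas N2 went from 49.3 to 6.13 CPM over the same time. After the window the mutant stood at 16.8 CPM at 34 h, and both strains were higher again at 38 h, with 44.8 CPM in N2 and 58.8 CPM in lin-41(xe11). The double mutant lay between the other strains at each of the 3 hours, with 31.6 CPM at 30 h and 23.9 CPM at 32 h.

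**Figure D1:**
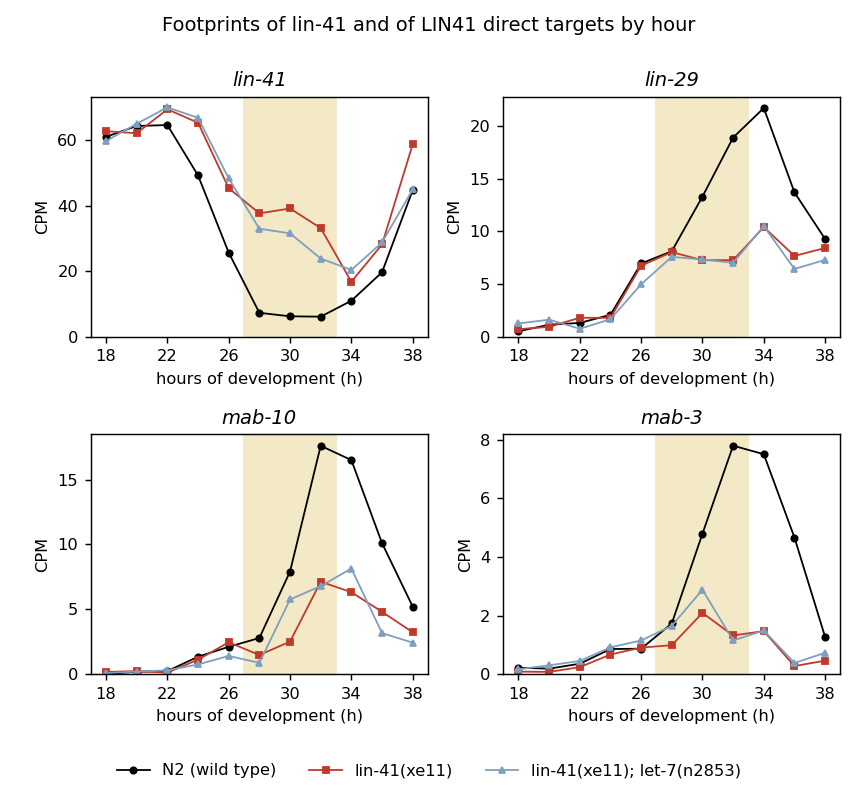
CPM of lin-41, lin-29, mab-10 and mab-3 (y axes) by hour of development (x axes) in the 3 strains, 1 library per point; the shaded band marks 28 to 32 h. Within the band lin-41 stays between 33.2 and 39.2 CPM in lin-41(xe11) and between 6.13 and 7.31 CPM in N2, while lin-29 reaches 18.9 CPM in N2 at 32 h and 7.27 CPM in the mutant.

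Across all genes the strains differed little at these hours. Of 13213 genes tested, 6 passed a Benjamini-Hochberg adjusted p of 0.05 in edgeR's quasi-likelihood test, which is 0.0454% of those tested. One is lin-41, whose N2 level chose the hours, so that its place among the 6 is no result. The others higher in lin-41(xe11) were the P-glycoprotein transporter genes pgp-5 and pgp-6, and K09C6.9. The genes lower were bli-1, which encodes a collagen of the adult cuticle, and the collagen gene col-175. At an unadjusted p of 0.05, 296 genes were higher and 294 lower, or 2.24% and 2.23%. The median absolute log2 difference was 0.11, with a median standard error of 0.16. Single hours, described with no test, were less even. By at least 1 in log2(CPM + 1), 16 genes were higher and 53 lower at 28 h, of 9052 with a mean of at least 5 CPM. At 30 h 15 were higher and 4 lower of 9047, and at 32 h 12 were higher and 76 lower of 9112.

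The 5 calls beside lin-41 depended on the spread shared by 3 strains and on which hours were in the fit. Without 28 h in every strain all 6 calls stayed. The log2 difference of K09C6.9 was 0.96, and 1.16, 0.90 and 0.84 without 28, 30 and 32 h in every strain. For bli-1 it was -2.15, and -2.30, -2.04 and -1.98 in the same settings. When N2 and lin-41(xe11) alone were fitted, in 14 libraries, none of the 5 was called, and leaving out the 30 h or the 32 h libraries of every strain left 2 and 1 of the 6 calls, lin-41 included, as did leaving out the N2 or the mutant library of that hour alone. A rule of size, with no test, asked for a difference of 1 sign and at least 1 in log2(CPM + 1) at each of the 3 hours. It found 4 of 9147 genes with a mean of at least 5 CPM, or 0.0437%. Those were pgp-6, pgp-5 and lin-41 on the higher side and K08E7.6 on the lower. The place of lin-41 is again no result, since its N2 level chose the hours.

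**Figure D2:**
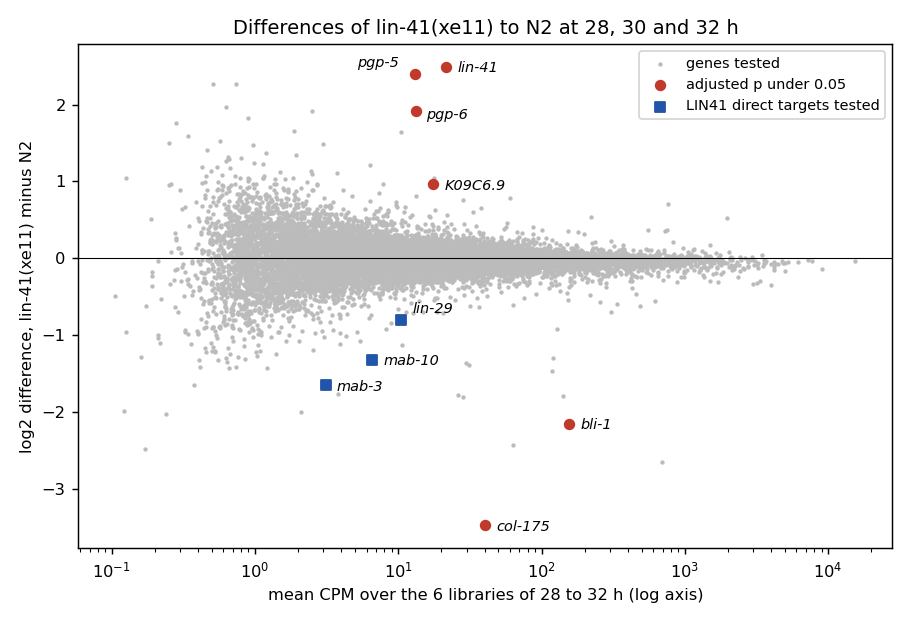
Log2 difference of lin-41(xe11) to N2 over 28 to 32 h (y axis) against the mean CPM of the 6 libraries (x axis, log scale) for the 13213 genes tested. The 6 genes past the threshold are marked as circles and the 3 direct targets of LIN41 that could be tested as squares; all 3 squares lie below 0, between -1.65 and -0.80.

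The mRNAs that LIN41 is known to repress directly were described next: lin-29 and mab-10, and the DM-domain transcription factor genes mab-3 and dmd-3. None passed the adjusted threshold, and all 3 that could be tested were lower in lin-41(xe11) at an unadjusted p under 0.05. Over all genes tested 2.23% were lower at that threshold. Their median log2 difference was -1.32, beside -0.01 over all genes tested. At single hours the median of the 3 genes was -0.46 at 28 h, -0.90 at 30 h and -1.27 at 32 h on the log2(CPM + 1) scale.

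For lin-29, a zinc finger transcription factor required for adult fates, N2 went from 8.11 CPM at 28 h to 13.3 CPM at 30 h and 18.9 CPM at 32 h. The mutant stayed at 8.03, 7.26 and 7.27 CPM. The strains were close at 28 h and 2.6-fold apart at 32 h, and all 3 mutant libraries lay below all 3 of N2. The log2 difference was -0.80 ± 0.25 (standard error), with an edgeR adjusted p of 0.749, and -0.46 without the N2 library of 32 h. At 34 h N2 was at 21.7 CPM and lin-41(xe11) at 10.4 CPM.

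For mab-10, which encodes a cofactor of LIN-29, N2 went from 2.79 to 7.91 and 17.6 CPM, and lin-41(xe11) from 1.48 to 2.51 and 7.13 CPM. The mutant was lower at every hour, by 1.88-fold, 3.15-fold and 2.47-fold, although the strains overlap over the 3 hours because both were higher at later hours. The log2 difference was -1.32 ± 0.27 (edgeR adjusted p = 0.224). With all 11 hours of the 3 strains in the fit mab-10 was called (edgeR adjusted p = 0.0469); its adjusted p ranged from there to 1 over 22 alternative settings, and its sign held in all 22.

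For mab-3 the values were 1.73, 4.79 and 7.79 CPM in N2 and 0.989, 2.09 and 1.32 CPM in lin-41(xe11). The mutant was lower at every hour, by 5.89-fold at 32 h, from 61 counts in N2 and 10 counts in the mutant. The log2 difference was -1.65 ± 0.37 (edgeR adjusted p = 0.389), and -0.93 without the N2 library of 32 h. Before the window these genes had few footprints in either strain: the mean of 18 to 24 h was 1.26 CPM for lin-29, 0.444 CPM for mab-10 and 0.407 CPM for mab-3 in N2.

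The fourth gene, dmd-3, was below the filter of 1 CPM in 3 libraries. It had 0, 13 and 5 counts in N2 at 28, 30 and 32 h, and 0, 2 and 2 counts in lin-41(xe11). No difference of dmd-3 could be tested at this depth. In the double mutant, which shares the N2 libraries with this comparison, the log2 differences to N2 were -0.85 for lin-29, -1.07 for mab-10 and -1.26 for mab-3, with none past the threshold.

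The 2 transporter genes called lie close to each other on chromosome X in the WBcel235 annotation, both on the minus strand. P-glycoproteins are ATP-driven pumps that export small compounds from cells. The gene pgp-6 (10871201 to 10877425) was at 5.72, 6.58 and 4.09 CPM in N2 at 28, 30 and 32 h and at 15.5, 32.5 and 14.9 CPM in lin-41(xe11). Every mutant library was above every N2 library, and the excess was highest at 30 h, at 4.95-fold. The gene rose by a log2 difference of 1.91 ± 0.23 (edgeR adjusted p = 0.00459).

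The gene pgp-5 (10854216 to 10859297) was at 3.86, 3.68 and 4.72 CPM in N2 and at 13.8, 34.9 and 17.6 CPM in lin-41(xe11). Its groups did not overlap either, and the excess was again highest at 30 h, at 9.49-fold. It rose by 2.40 ± 0.36 (edgeR adjusted p = 0.0241). DESeq2 called both genes too, while in the fit of N2 and lin-41(xe11) alone the adjusted p was 0.11 for each. Without 30 h in every strain the log2 difference was 1.64 for pgp-6 (edgeR adjusted p = 0.381) and 1.90 for pgp-5 (edgeR adjusted p = 1).

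Between the pair lie 11903 bases with 2 further members of the family, pgp-7 and pgp-8. At these hours pgp-7 was at or under 0.14 CPM in both strains. The gene pgp-8 stood at 2.79, 3.01 and 5.75 CPM in N2 and 2.97, 2.23 and 7.13 CPM in lin-41(xe11), so the groups overlap. How reads that map to several genes were counted is not given in the sources used here, so reads may be shared among these similar genes. In N2 both pgp-5 and pgp-6 were higher in L3 than in the window, with 23.7 and 27.8 CPM at 22 h, and at 34 h the strains were close again (2.81 and 3.5 CPM for pgp-5, 4.79 and 3.38 CPM for pgp-6, N2 first).

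In the double mutant pgp-5 was at 1.26, 7.33 and 6.10 CPM and pgp-6 at 6.7, 12.2 and 5.75 CPM, nearer to N2. The difference of lin-41(xe11) to the double mutant, added after the data were seen, was 2.23 ± 0.34 for pgp-5 (edgeR adjusted p = 0.0496), 1 of 4 calls or 0.0303% of genes. For pgp-6 it was 1.34 ± 0.22 (edgeR adjusted p = 0.0514), just outside.

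Other genes of xenobiotic metabolism were looked at after these values were seen, and so get no test as families. Of 58 UDP-glycosyltransferase genes tested, 5 had an unadjusted p under 0.05, all higher in lin-41(xe11), and none was called. Over all genes 2.24% were higher at that threshold, and the median log2 difference of the 58 was -0.03. The 5 were ugt-26, ugt-28, ugt-29, ugt-30 and ugt-31. In each of them all 3 mutant libraries were above all 3 N2 libraries, which held for 2.8% of genes tested. The 5 were picked by their p in these same libraries, so this separation is not further evidence. For ugt-29 the values were 22.6, 21.4 and 17.9 CPM in N2 and from 26.7 to 47.1 CPM in the mutant, a log2 difference of 0.76 ± 0.16 (edgeR adjusted p = 0.272). Its excess was highest at 30 h, as with the transporters. Of 50 cytochrome P450 genes 3 were higher at the unadjusted threshold, and of 35 glutathione S-transferase genes 0 passed it in either direction, with 0 calls by DESeq2. Of 13 P-glycoprotein genes tested, pgp-5 and pgp-6 rose and pgp-1 was lower at an unadjusted p of 0.0459 (edgeR adjusted p = 1).

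The fourth gene that was higher, K09C6.9 (chromosome V, 853436 to 855066, minus strand), has no role that is given here. It was at 14.9, 11.7 and 9.32 CPM in N2 and at 22.4, 24.9 and 22.2 CPM in lin-41(xe11), with no overlap. It rose by 0.96 ± 0.14 (edgeR adjusted p = 0.0241). The difference was there before the window as well, at 1.10 from 18 to 24 h (edgeR adjusted p = 0.00526), and the mutant was higher at 11 of 11 hours. The double mutant was at 21.8, 19.1 and 19.8 CPM, closer to lin-41(xe11) than to N2.

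**Figure D3:**
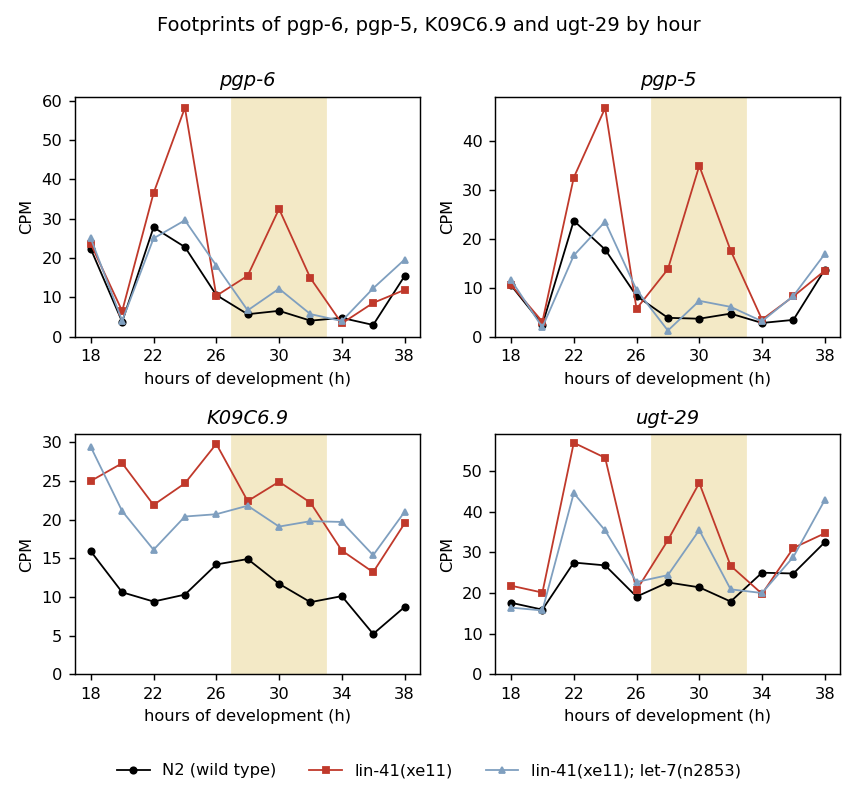
CPM of pgp-6, pgp-5, K09C6.9 and ugt-29 (y axes) by hour (x axes) in the 3 strains, 1 library per point, with 28 to 32 h shaded. Within the shaded hours the transporters are highest at 30 h in lin-41(xe11), at 32.5 and 34.9 CPM, and stay at or below 6.58 CPM in N2. K09C6.9 is higher in lin-41(xe11) at every hour plotted.

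Both genes that were called lower encode collagens, with their highest levels of the window at 32 h in both strains. The gene bli-1 (chromosome II, 10708960 to 10712156) encodes a collagen of the struts that join the layers of the adult cuticle. In N2 it went from 1.73 CPM at 28 h to 21.3 CPM at 30 h and 754 CPM at 32 h, and in lin-41(xe11) from 1.24 to 3.77 and 157 CPM. Both strains were higher at each later hour, and the mutant was 5.65-fold lower at 30 h and 4.81-fold lower at 32 h. Whether the rise began later in the mutant was not tested, with 1 library every 2 h. Over the window bli-1 fell by a log2 difference of 2.15 ± 0.29 (edgeR adjusted p = 0.0112).

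The collagen gene col-175 (chromosome X, 9233638 to 9234618) had 2, 8 and 1748 counts in N2 and 1, 2 and 137 counts in lin-41(xe11). At 32 h this was 223 against 18.1 CPM, or 12.3-fold. Its fitted difference of -3.47 ± 0.38 (edgeR adjusted p = 0.00459) therefore rests on the pair of libraries of 32 h. DESeq2 called neither gene (adjusted p = 0.249 for bli-1 and 1 for col-175), and limma on 3 differences at the same hour gave an adjusted p of 0.844 and 0.887. Without 32 h in every strain bli-1 was not called (-1.98, edgeR adjusted p = 1) and col-175 had too few counts to be tested.

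Of 7 adult cuticle genes with counts, 6 were tested. These all had a log2 difference below 0 and a median of -0.86; bli-1 was called, and 3 were lower at an unadjusted p under 0.05, including rol-1 and col-49, beside 2.23% of all genes. The median was -0.03 without the N2 library of 32 h and -0.24 without 32 h in every strain. The collagen gene rol-1 was at 0.931, 1.34 and 134 CPM in N2 and at 0.742, 0.978 and 30.5 CPM in lin-41(xe11) (-1.80 ± 0.46, edgeR adjusted p = 0.487), and its difference was 0.01 without the N2 library of 32 h. The other strut collagen gene, bli-2, was at 27.3, 18.9 and 573 CPM in N2 and at 44.6, 14.9 and 258 CPM in lin-41(xe11). It was higher in the mutant at 28 h and 2.22-fold lower at 32 h, with a fitted difference of -0.37 ± 0.29 (edgeR adjusted p = 1) that turned to 0.24 without the N2 library of 32 h. The adult marker gene col-19 stayed at or below 1.86 CPM in all 6 libraries.

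A second list held 12 collagens that earlier results of these libraries had shown to be low in the mutants in late L4, so its direction is not independent evidence. Of the 10 tested, 9 were below 0, 1 was called and 4 were lower at the unadjusted threshold, beside 0.0454% and 2.23% of all genes. Their median log2 difference was -0.58, and -0.31 without the N2 library of 32 h. At 32 h col-38 was at 652 CPM in N2 and 97.9 CPM in lin-41(xe11), col-71 at 561 and 102 CPM, and col-63 at 123 and 31.8 CPM. At 28 h col-71 was at 14.1 and 11.9 CPM and col-63 at 0.931 and 0.247 CPM. The gap in CPM thus opened between 28 and 32 h. For col-63 the mutant was about as low in proportion at 28 h as at 32 h, but from under 1 CPM in both strains at 28 h. The remaining members of the list (such as col-106, col-120, col-181 and col-184) were under 7 CPM in all 6 libraries. An unnamed identifier that is not on the list, WBGene00000686, was named after its values were seen. It had the same shape, with 0.399, 4.46 and 325 CPM in N2 and 0.247, 1.54 and 49.5 CPM in lin-41(xe11) (-2.43 ± 0.44, edgeR adjusted p = 0.151).

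The double mutant showed the 2 called collagens still lower, at 79.1 CPM for bli-1 and 5.98 CPM for col-175 at 32 h. Its log2 differences to the same N2 libraries were -2.93 and -4.95 (edgeR adjusted p = 0.000656 and 0.000431), among 8 calls or 0.0605% of genes. Set against the double mutant, lin-41(xe11) differed in bli-1 by 0.78 with a 95% interval of 0.08 to 1.48, and in col-175 by 1.48 with an interval of 0.48 to 2.49. Neither passed the adjusted threshold (edgeR adjusted p = 1 and 0.954).

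**Figure D4:**
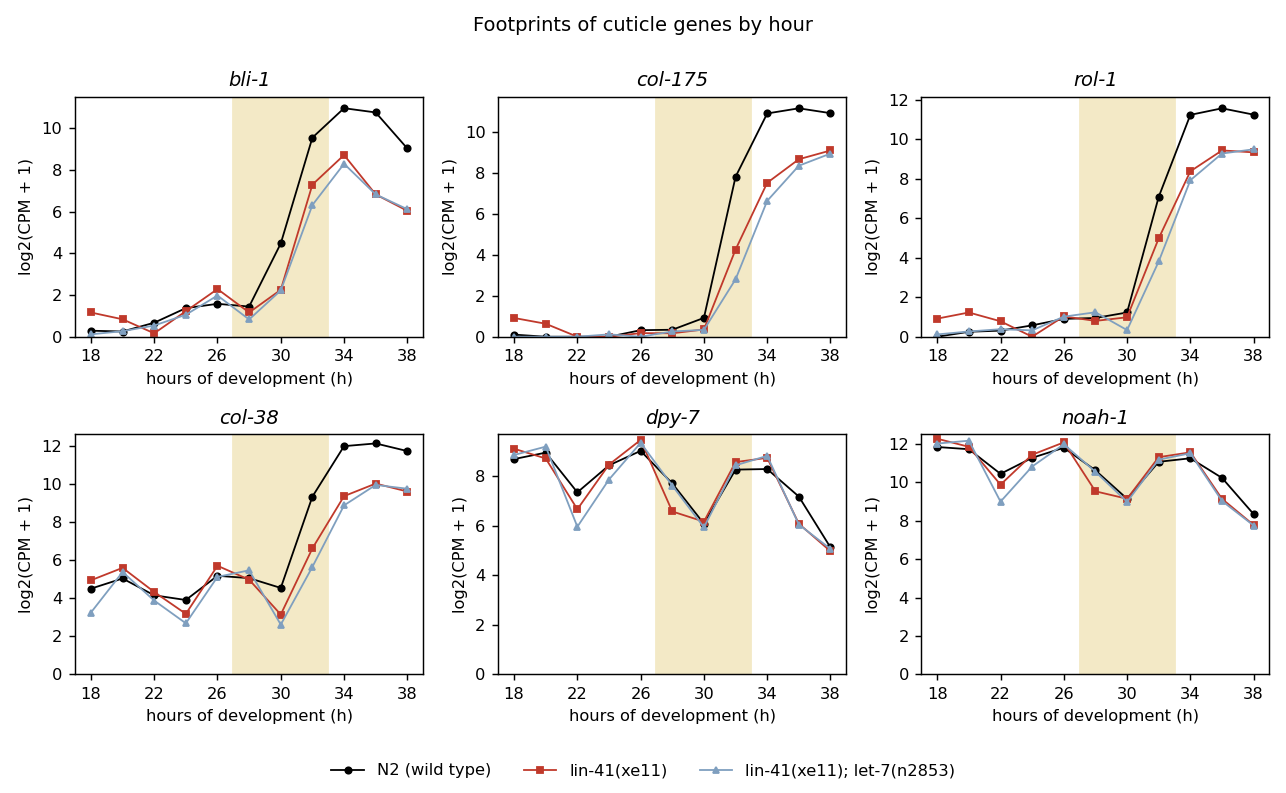
Log2(CPM + 1) of bli-1, col-175, rol-1, col-38, dpy-7 and noah-1 (y axes) by hour (x axes) in the 3 strains, 1 library per point, with 28 to 32 h shaded. The first 4 genes climb from 30 to 32 h in all strains and are lower in both mutants at 32 h; dpy-7 and noah-1 cycle, and lin-41(xe11) is below N2 at 28 h and level with it at 30 h.

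Genes of the molting cycle differed between the strains by hour, with opposite signs within the window, and none was called. All 6 furrow collagens, which shape the annular furrows of the cuticle, were tested. Their median difference was -1.09 at 28 h, 0.16 at 30 h and 0.29 at 32 h on the log2(CPM + 1) scale. For dpy-7 the values were 207, 66.4 and 305 CPM in N2 and 93.9, 70.4 and 377 CPM in lin-41(xe11). The mutant was 2.21-fold lower at 28 h only. Over the 3 hours its log2 difference was -0.21 with a 95% interval of -0.86 to 0.43.

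The 25 apical matrix and molting genes tested had medians of -0.61, -0.03 and 0.22 at the 3 hours, and 0 were called by edgeR or DESeq2, with 0 at an unadjusted p under 0.05. Among them noah-1, which encodes a zona pellucida domain protein of the apical matrix, was at 1586, 567 and 2161 CPM in N2 and 743, 567 and 2556 CPM in lin-41(xe11). When each mutant library was set against N2 read at its estimated age in place of its hour, the median of the furrow collagens at 28 h went from -1.09 to -0.67 and that of the apical matrix genes from -0.61 to -0.20. The 28 h library is the one estimated 0.5 h ahead of its hour.

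By hour and by age the values of the lower genes were as follows. At 32 h the difference of bli-1 was -2.26 by hour and -2.40 by age, and that of col-175 -3.55 and -3.86, both on the log2(CPM + 1) scale. The median of the direct targets of LIN41 went from -0.46 to -0.73 at 28 h, from -0.90 to -0.96 at 30 h and from -1.27 to -1.29 at 32 h. The part of developmental age in these differences was not tested.

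**Figure D5:**
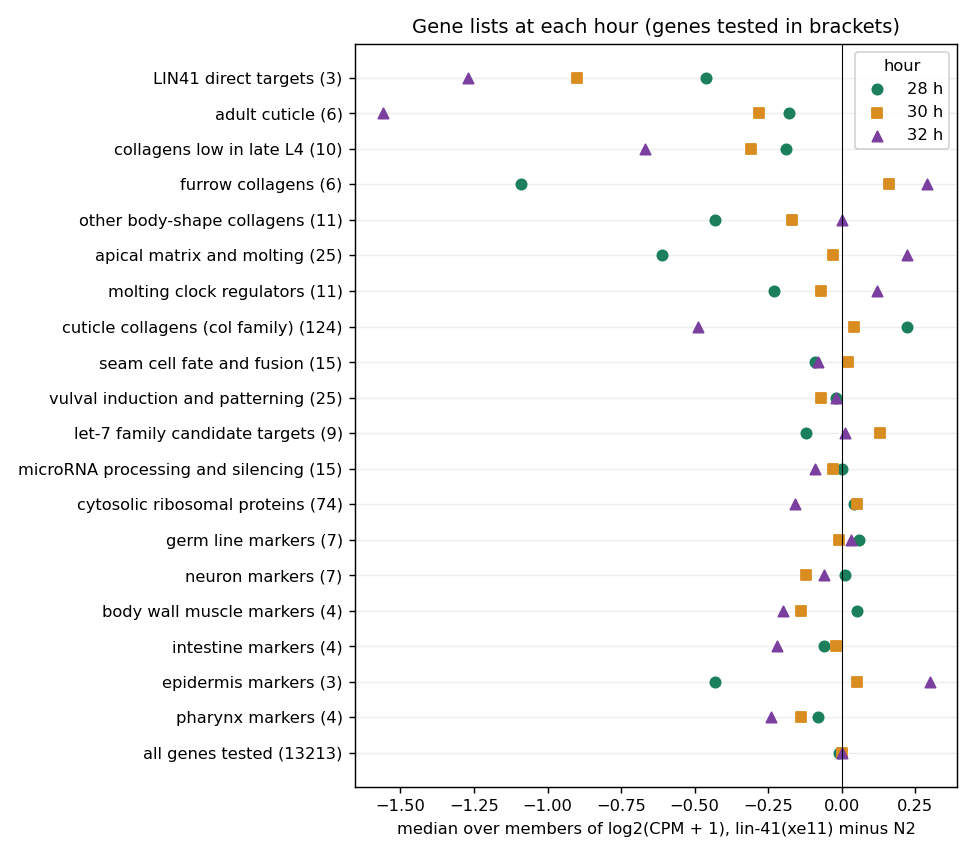
Median over list members of the difference in log2(CPM + 1), lin-41(xe11) minus N2 (x axis), at 28, 30 and 32 h for 19 gene lists and for all genes tested, with the number tested in brackets. Direct targets of LIN41 and adult cuticle genes lie lowest at 32 h (-1.27 and -1.56), furrow collagens at 28 h (-1.09), and the marker lists lie between -0.43 (epidermis, 28 h) and 0.30 (epidermis, 32 h).

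Other candidate targets of the let-7 family were described because xe11 leaves the microRNA itself intact. Of 9 such genes tested, 0 were called by edgeR or DESeq2 and 0 had an unadjusted p under 0.05. Their median log2 difference was 0.01. The nuclear receptor gene daf-12 was between 8.14 and 13.3 CPM in N2 and at 11.6, 12.4 and 9.38 CPM in lin-41(xe11). The groups overlap, and the difference was 0.01 with a 95% interval of -0.39 to 0.42. In the double mutant, where let-7 is mutated too, daf-12 stood at 30.7, 37.3 and 39.4 CPM, and lin-41(xe11) was lower than the double mutant by 1.67 ± 0.17 on the log2 scale (-1.67, edgeR adjusted p = 0.00155).

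The zinc finger gene hbl-1, which holds back late larval fates, was at 3.72, 3.01 and 4.47 CPM in N2 and at 4.82, 4.19 and 4.62 CPM in lin-41(xe11). Its difference was 0.29, with an interval of -0.04 to 0.62. The other candidates had values of 0.17 for lin-28 (an RNA-binding protein), 0.11 for lin-14 (a nuclear factor of early larval fates), -0.04 for the Ras gene let-60 and -0.16 for pha-4 (a forkhead factor of the pharynx). The values were -0.18 for die-1 (a zinc finger factor), 0.03 for nhr-23 and -0.01 for nhr-25 (nuclear receptors of the molting cycle). Of the other 12 genes of the heterochronic pathway 0 were called by edgeR or DESeq2, and mab-10 and lin-29 were lower at the unadjusted threshold.

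The gene that the rule of size found lower, K08E7.6 (chromosome IV, 12578855 to 12581146), has no role that is given here. It was at 904, 1511 and 1135 CPM in N2 and at 362, 146 and 110 CPM in lin-41(xe11). Its groups did not overlap, and the mutant was 2.50-fold, 10.4-fold and 10.4-fold lower. It was not called (-2.65 ± 0.64, edgeR adjusted p = 0.462). Its level varied between hours within a strain, from 579 to 1709 CPM over 18 to 24 h in N2, and 1 of 4 double mutant libraries at those hours stood at 979 CPM against 143 to 164 CPM in the others. The mutant was lower at 10 of 11 hours.

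The yolk protein genes were at their onset. In N2 vit-2 went from 0.399 to 5.35 and 26.9 CPM and in lin-41(xe11) from 0.247 to 3.21 and 13.2 CPM (-0.92 ± 0.25, edgeR adjusted p = 0.739). The gene vit-1 was on the other side, at 3.72, 20.8 and 70.5 CPM in N2 and 4.70, 25.0 and 94.3 CPM in lin-41(xe11) (0.35 ± 0.13, edgeR adjusted p = 0.996). Their sequences are similar, so reads may be shared between them.

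Among 22 insulin-like peptide genes tested, ins-26 was lowest, at 8.64, 8.69 and 6.77 CPM in N2 and 4.70, 6.14 and 3.70 CPM in lin-41(xe11). All mutant libraries were below all N2 libraries, as in 2.79% of genes tested. The gene was picked as the lowest in these same libraries, so this separation is not further evidence. It was not called (-0.73 ± 0.15, edgeR adjusted p = 0.272).

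The other lists gave no call beyond genes already described, col-175 in the col family and lin-41 in the TRIM-NHL family. Of 15 genes of microRNA processing and silencing 0 had an unadjusted p under 0.05 (0 calls by DESeq2), from nhl-2 at -0.12 to pash-1, a partner of the Drosha nuclease, at 0.26. Of 15 seam cell genes 0 and of 25 vulval genes 1 (lin-29) passed the unadjusted threshold. The 74 cytosolic ribosomal protein genes had a median of -0.03 and a range of -0.12 to 0.09. Of the collagens of the col family that were tested, 6 were lower at the unadjusted threshold (4.84%, beside 2.23% of all genes) and 0 higher, with medians of 0.22 at 28 h, 0.04 at 30 h and -0.49 at 32 h. Of the nuclear hormone receptor genes tested 6 were higher and 2 lower at that threshold, or 3.43% and 1.14%, beside 2.24% and 2.23% of all genes.

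Before the window, at 18 to 24 h, 7 of 13213 genes were called, or 0.053%, and K09C6.9 was the only gene called in both windows. Of the other 6, named after their values were seen, zig-2 was lower at 11 of 11 hours, with a log2 difference of -1.17 (edgeR adjusted p = 0.0179) before and -0.96 (edgeR adjusted p = 0.418) in the window. The gene T26H5.9 was also lower at 11 of 11 hours, at -1.07 and -0.84. In the comparison of the windows 1 gene, or 0.00757%, passed the adjusted threshold; it was lin-41, whose N2 level chose the hours, so this is no result, and 554 genes had an unadjusted p under 0.05. For bli-1, col-175, pgp-5 and pgp-6 this difference was not called (edgeR adjusted p of 1, 0.965, 1 and 1).

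After the window, the differences of 34 to 38 h were set against those of 28 to 32 h, in 33 libraries. Of 13918 genes 27 were called, or 0.194%. The collagen gene col-41 was, in the window, at 2438 CPM in N2 and 2539 CPM in the mutant at 28 h and at 1439 and 1183 CPM at 30 h. At 32 h the mutant was at 193 CPM and higher than N2 by 0.63 in log2(CPM + 1). By 34 h col-41 was at 26.6 CPM in N2 and 1073 CPM in the mutant, a change in the log2 difference of 5.90 ± 0.57 (edgeR adjusted p = 8.33e-06). For daf-9, a cytochrome P450 of steroid hormone synthesis, the difference was 0.03 ± 0.15 in the window and changed by 2.22 ± 0.25 (edgeR adjusted p = 5.23e-05). The differences of bli-1 and col-175 did not pass this test (-0.96 and 0.78, edgeR adjusted p = 0.744 and 0.871).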

How the data were processed

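Footprints of 43 libraries were deposited as counts per gene. The mapper was Bowtie, per the submitters' processing notes. Its version, how multiply mapping reads were handled, and which build and annotation were used are not given in the sources used here. The authors deposited raw counts per gene, and also log2 values after scaling, which served as an alternative. Of 20182 gene identifiers 18778 matched a symbol, and positions come from the WBcel235 annotation.

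Counts of 21 libraries (3 strains of the second time course at 18, 20, 22, 24, 28, 30 and 32 h) were fitted in edgeR 4.0.16 with R 4.3.3. A gene was kept if 3 or more libraries reached 1 CPM. The model had TMM factors, a term for each hour and a term for each mutant strain in each window, which leaves 10 residual degrees of freedom. A gene was called below 0.05 after Benjamini-Hochberg adjustment. Errors of log2 differences are the difference divided by the square root of its F value. A fit of 33 libraries, with 16 residual degrees of freedom, tested the later window. CPM use TMM library sizes. The pseudocount was 1 CPM. Ages come from the highest correlation to the interpolated N2 course, in steps of 0.1 h. DESeq2 1.42.0 and limma 3.58.1 gave alternatives.

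The genes named are lin-41, the lists of LIN41 direct targets and let-7 candidates, all called genes, those of the rule of size, and the extremes and defining members of each list. Further genes are said to be named after their values were seen. The strains, hours, lists and tests were chosen with earlier results of these data known. Libraries of the same hour deviated together from their strain's mean (correlations of 0.833, 0.652 and 0.886 at 28, 30 and 32 h between N2 and lin-41(xe11)), and the hour was a term of the fit. The first time course, let-7(n2853), used another purification and was left out.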

Additional observations from a re-analysis of the deposited data

Results flagged for a closer look

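The log2 difference between lin-41(xe11) and N2 changed from 28 to 32 h to 34 to 38 h in 10 genes of the lists. The threshold was an adjusted p under 0.05 in the edgeR test of that change, passed by 0.194% of all genes. Members of the lists were not counted together, so the 10 have no share to set beside this. The change was upward for col-41 (5.90), col-54 (4.36), col-90 (3.3), col-156 (2.80) and daf-9 (2.22). It was downward for col-106 (-5.13), col-181 (-4.73), col-184 (-4.04), col-122 (-3.89) and col-81 (-2.61). Of these, col-106, col-181 and col-184 come from the list of collagens chosen for being low in the mutants in late L4. Their downward change was therefore set by the choice and is not independent evidence. Within 28 to 32 h none of the 10 was called, and col-106, col-181, col-184, col-122 and col-81 were under 6 CPM in all 6 libraries, so few counts stand behind their values there.

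Dixon's test marked a library among the 4 of 18 to 24 h for 4 of the genes named. By chance it marks about 1 of 20 groups. The groups it was run on were not counted, so the 4 genes have no share to set beside this. The 4 libraries of a group also differ in hour. The marked values were 0.0739 CPM for col-175 in N2 at 18 h, 159 CPM for K08E7.6 in lin-41(xe11) at 24 h, 1.12 CPM for mab-10 in lin-41(xe11) at 24 h and 0.0787 CPM for dmd-3 in lin-41(xe11) at 20 h. Those of col-175 and dmd-3 are far below 1 CPM.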

How the results depend on the processing

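The count of 6 calls at 28 to 32 h was 6 with DESeq2 size factors, without a filter and with a filter of 5 CPM. It was 5 with DESeq2, of which 4 were among the 6, and 9 with all hours, which held all 6. With 26 h added it was 7, but only 3 of the 6 were among them. In that setting pgp-5, pgp-6 and bli-1 were not called (edgeR adjusted p = 0.501, 0.28 and 0.257). The count was 3 with 9 libraries of the window, 1 with 6 libraries of N2 and lin-41(xe11), 1 with 14 libraries and 3 with limma on the deposited log2 table. With 3 differences by hour or by estimated age limma made 0 calls, beside 776 and 1038 genes at an unadjusted p under 0.05. Without the replicate block, that is with no hour term, it was 1 call (lin-41). Leaving out single libraries or hours gave 1 to 7 calls, and the count of 7 at 18 to 24 h went to 4, 5 and 2 without 28, 30 and 32 h. The log2 value of lin-41 was 1.93 with 26 h in the window, 2.32 by 3 differences by hour and 2.31 by age, and it lay between 2.40 and 2.55 in the leave-outs. No called gene changed sign under an alternative that held it. List medians ranged from -1.45 to -0.93 (direct targets), -1.38 to -0.03 (adult cuticle), -1.78 to -0.31 (collagens low in late L4) and -0.43 to 0.23 (furrow collagens). The estimated ages, the count by the rule of size and both differences of differences kept within 1.5 times or 0.5 h. The cause of these shifts was not tested. With 1 library per strain and hour, and under 100 counts for several named genes, small differences were not detectable.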
